A study of Mus musculus with 18 samples.

Results

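The genes described here are 39 genes known in the mouse to be imprinted, that is, expressed mainly from the copy inherited from 1 parent. The list was written by name, and each gene was represented by the probe set with the highest mean over 18 arrays among those assigned to that gene alone. Of the 39 genes, 35 had such a probe set among the 18193 genes of the table. H19 shared its single probe set with Mir675, and Rtl1, Dio3 and Zrsr1 were not analysed here. Of the 35, 16 lay above the filter that left out the 40% of genes with the lowest mean and were tested among 10916 genes.

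Imprinted genes lie in domains in which DNA methylation set in the egg or the sperm marks 1 parental copy, and long non-coding RNAs or insulators then silence neighbouring genes on that copy. Many paternally expressed members promote growth of the fetus and placenta, and several maternally expressed members restrain it. The group is known in tumours for loss of the parental restriction and for silencing. An array measures the sum of both copies, so it does not tell which parental copy a signal came from. By background knowledge of the mouse, 22 of the 39 are expressed from the paternal copy, 14 from the maternal copy and 3 (Grb10, Gnas and Ube3a) from a copy that depends on tissue or promoter.

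The cells were 3 mouse lung carcinoma lines, A2C12, betaD5 and cRAF_cMYC, each started from lung tumours of mice aged 8 months that carried both a c-raf and a c-myc transgene. All 3 lines therefore share the 2 transgenes, no normal lung cells were included, and whether a line is 1 clone is not stated in the labels. Each line was split into side population (SP) cells, which pump out a DNA-binding dye, and the remaining non-SP cells, with 3 arrays for each line and fraction. Levels are log2 signals after quantile normalization, which gives every array the same distribution, so a difference of 1 is a doubling. A level on an array can be set against the same probe set on another array, not against another probe set.

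The arrays labelled betaD5 1 and cRAF_cMYC 3, SP and non-SP alike, went against their line labels. Over all tested genes the non-SP array of betaD5 1 correlated at up to 0.982 with cRAF_cMYC arrays of another number and at up to 0.926 with those of betaD5. For the non-SP array of cRAF_cMYC 3 the values were 0.988 with betaD5 and 0.930 with cRAF_cMYC. Lines are named as labelled throughout, and counts of called genes in the comparisons with A2C12 are given with and without these 2 pairs, as are named genes whose call changed without them. As a check of the label, 5 to 7 of 14 lung epithelial markers lay above background in each group, Sftpb, Abca3, Slc34a2, Etv5 and Ager in all 6. Napsa was above it in A2C12 only, Aqp5 in A2C12 and betaD5, and Nkx2-1 in betaD5 SP only. The club cell marker Scgb1a1 and the surfactant genes Sftpa1, Sftpc and Sftpd were above it in no group. Of 13 epithelial junction and keratin markers, 8 were above it in A2C12 and 7 in the other lines, Epcam, Krt8, Krt18 and Krt19 among them in every group. The junction gene Cdh1 was above it in A2C12 only, and Krt7, Cldn4, Cldn7, Ocln and Esrp1 were above it in no group. Over the groups the list median ran from 6.05 to 6.45 for the lung markers and from 6.54 to 6.86 for the junction and keratin markers. Background was 6.33 to 6.54, and 59.8% to 62.4% of all genes were above it. Neither median lay far from background, so the check is a weak one.

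Background was taken as the 95th percentile of 77 receptor genes that these cells should not express, which lay between 6.33 and 6.54 in the 6 groups, where 59.8% to 62.4% of all genes were above it. By this measure 15 of the 35 imprinted genes were near background in all 6 groups, and 20 were above it in at least 1. The 15 were Mest, Peg10, Peg12, Zim1, Usp29, Nnat, Magel2, Mkrn3, Nap1l5, Rian, Mirg, Asb4, Ppp1r9a, Ascl2 and Slc38a4. Apart from Slc38a4, their probe sets read 3.45 to 6.34 over the 18 arrays and passed the background of the array itself on none. All 16 tested genes were above background in at least 1 group, and Cdkn1c, Plagl1, Dlk1 and Phlda2 were above it without passing the filter.

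**Figure D1:**
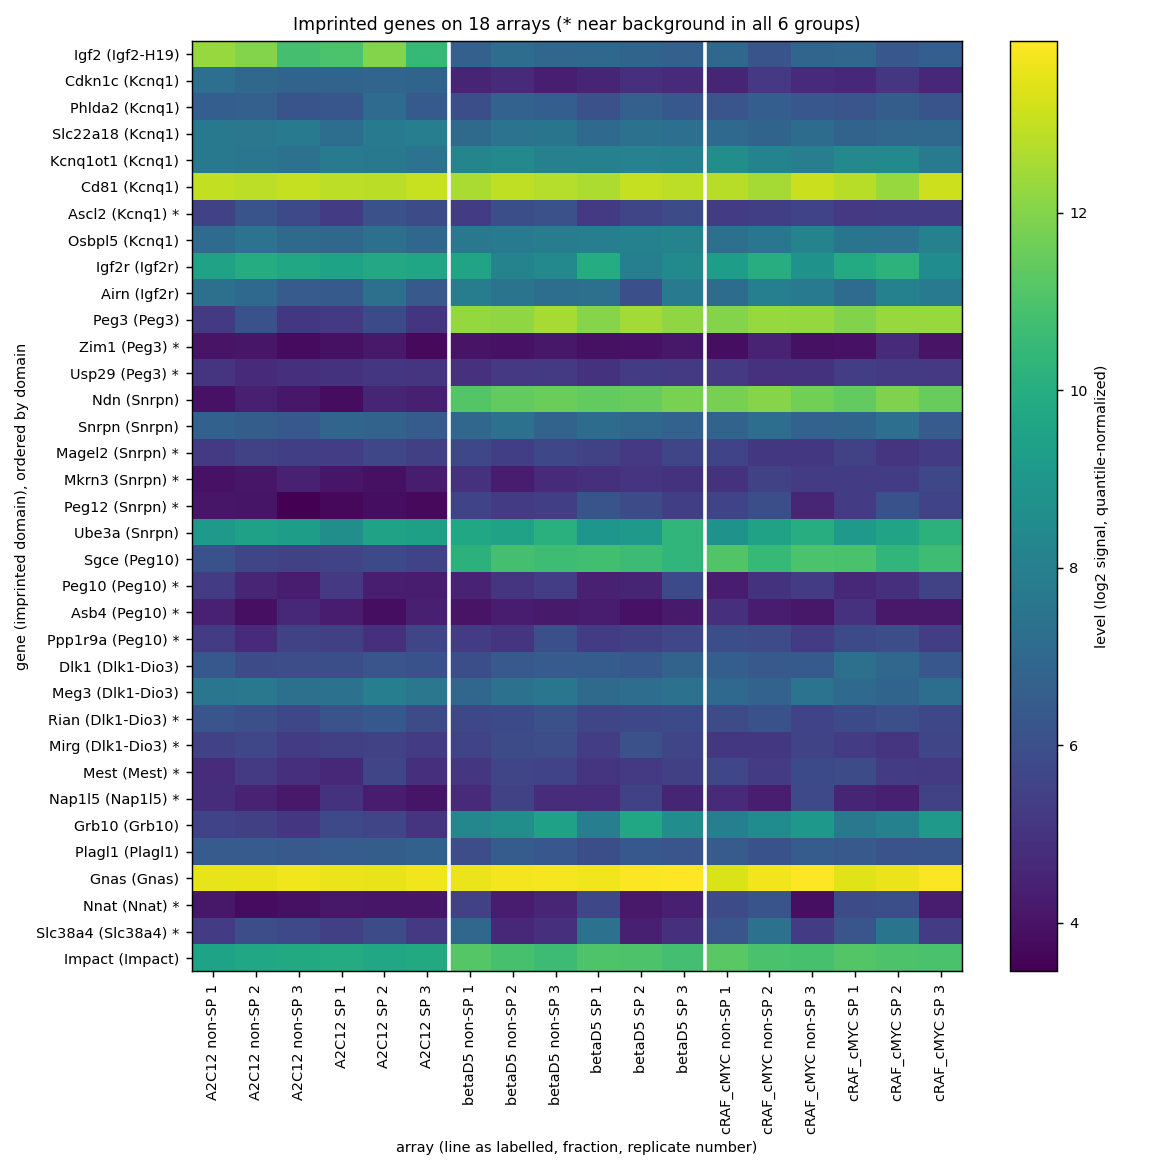
Levels (log2 signal, quantile-normalized; colour) of the 35 imprinted genes with a probe set of their own, in rows by domain, on 18 arrays in columns by labelled line, fraction and replicate number. Peg3, Ndn, Sgce and Grb10 are dark on the 6 A2C12 arrays and bright on the other 12, and Igf2 and Cdkn1c show the opposite.

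Peg3, Ndn, Grb10 and Igf2, which differed strongly between A2C12 and the other lines, have start regions in the RefSeq table used here (build GRCm38.p6), and these are shown because CG dinucleotides, in capitals, are the positions at which imprinted genes are methylated. Each window runs from 250 bases before to 50 bases after the annotated start. The motif searched was CG, which reads the same on both strands. Peg3 lies at chr7:6730370-6730669 on the minus strand, Ndn at chr7:62348027-62348326 on the plus strand, Grb10 at chr11:12037371-12037670 on the minus strand and Igf2 at chr7:142658755-142659054 on the minus strand. For Igf2, with 4 annotated starts, and Grb10, with 2, the window with most CG is printed.
Peg3: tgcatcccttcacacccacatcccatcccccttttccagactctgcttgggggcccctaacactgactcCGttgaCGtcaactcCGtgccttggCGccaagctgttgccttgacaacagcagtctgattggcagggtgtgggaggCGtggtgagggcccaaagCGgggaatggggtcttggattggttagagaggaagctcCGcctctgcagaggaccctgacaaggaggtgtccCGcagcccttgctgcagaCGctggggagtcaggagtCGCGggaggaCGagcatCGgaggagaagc
Ndn: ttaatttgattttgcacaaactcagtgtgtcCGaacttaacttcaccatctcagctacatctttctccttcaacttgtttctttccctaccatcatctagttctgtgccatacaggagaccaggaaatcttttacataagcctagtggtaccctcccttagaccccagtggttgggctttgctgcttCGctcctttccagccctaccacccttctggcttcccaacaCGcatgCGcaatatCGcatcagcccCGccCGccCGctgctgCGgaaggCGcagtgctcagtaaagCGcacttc
Grb10: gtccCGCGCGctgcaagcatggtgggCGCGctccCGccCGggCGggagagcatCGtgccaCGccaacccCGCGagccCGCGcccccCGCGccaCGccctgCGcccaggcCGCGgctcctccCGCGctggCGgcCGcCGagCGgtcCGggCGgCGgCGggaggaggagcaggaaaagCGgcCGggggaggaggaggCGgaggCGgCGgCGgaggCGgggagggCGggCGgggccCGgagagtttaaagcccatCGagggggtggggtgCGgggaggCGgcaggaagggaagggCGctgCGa
Igf2: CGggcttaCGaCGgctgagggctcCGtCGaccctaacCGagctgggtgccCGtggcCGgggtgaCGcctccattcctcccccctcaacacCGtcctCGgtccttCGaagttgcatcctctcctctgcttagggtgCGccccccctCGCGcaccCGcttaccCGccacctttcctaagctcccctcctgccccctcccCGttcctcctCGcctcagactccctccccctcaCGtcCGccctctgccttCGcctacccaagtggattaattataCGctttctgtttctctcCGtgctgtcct

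The Peg3 window holds 13 CG, and 37.9% of all 32851 windows in the table hold as many. Ndn has 11, reached by 41.4% of windows, and Igf2 has 24, reached by 20.0%. Grb10 has 45, reached by 1.93%. The Igf2 and Grb10 windows were picked for most CG. The other Grb10 window has 9, reached by 45.8%, and the other Igf2 windows have 7, 14 and 2, reached by 52.1%, 36.3% and 85.9%. At least 1 CG is found in 94.6% of all windows, with a median of 7. With chromosome 18 left out, the 52 windows of 33 imprinted genes had a median of 12.5. The Peg3 window shares 263 bases with that of Usp29, a ubiquitin-specific peptidase gene that starts on the opposite strand, at chr7:6730333-6730632. Methylation was not measured in these samples.

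The lines were compared among non-SP cells to ask how far 3 tumour lines from the same transgenic model differ in imprinted genes. A2C12 stood apart: it had high Igf2 and no Peg3, Ndn, Sgce or Grb10 signal above background, while betaD5 and cRAF_cMYC had the reverse. In betaD5 minus A2C12, 7 of the 16 tested imprinted genes passed an adjusted p of 0.05 (limma, Benjamini-Hochberg over 10916 genes), 6 higher and 1 lower, beside 28.8% of all genes tested (15.6% higher and 13.2% lower). In cRAF_cMYC minus A2C12, 8 of 16 did, 6 higher and 2 lower, beside 22.4% (12% higher and 10.3% lower). The 7 genes of the first comparison were all among the 8 of the second. Both comparisons share the A2C12 arrays. Without the 2 pairs that went against their labels, 9 of 16 were called in each comparison, beside 42% and 32% of all genes. All 7 and all 8 were still called, Igf2r and Osbpl5 were added in betaD5 and Meg3 in cRAF_cMYC. Peg3, Ndn, Sgce and Grb10 passed the filter through the lines in which they were high, so their part in these counts was fixed by the filter. With no filter, 9 of 35 were called in betaD5 beside 18.7% of 18193 genes, and 11 of 35 in cRAF_cMYC beside 14.9%. Without the 2 pairs these became 11 of 35 beside 27.9%, and 14 of 35 beside 22.4%. With no filter and all arrays, the median size of the difference over all 35 was 0.46 and 0.44, against 0.30 and 0.28 over 18193 genes.

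**Figure D2:**
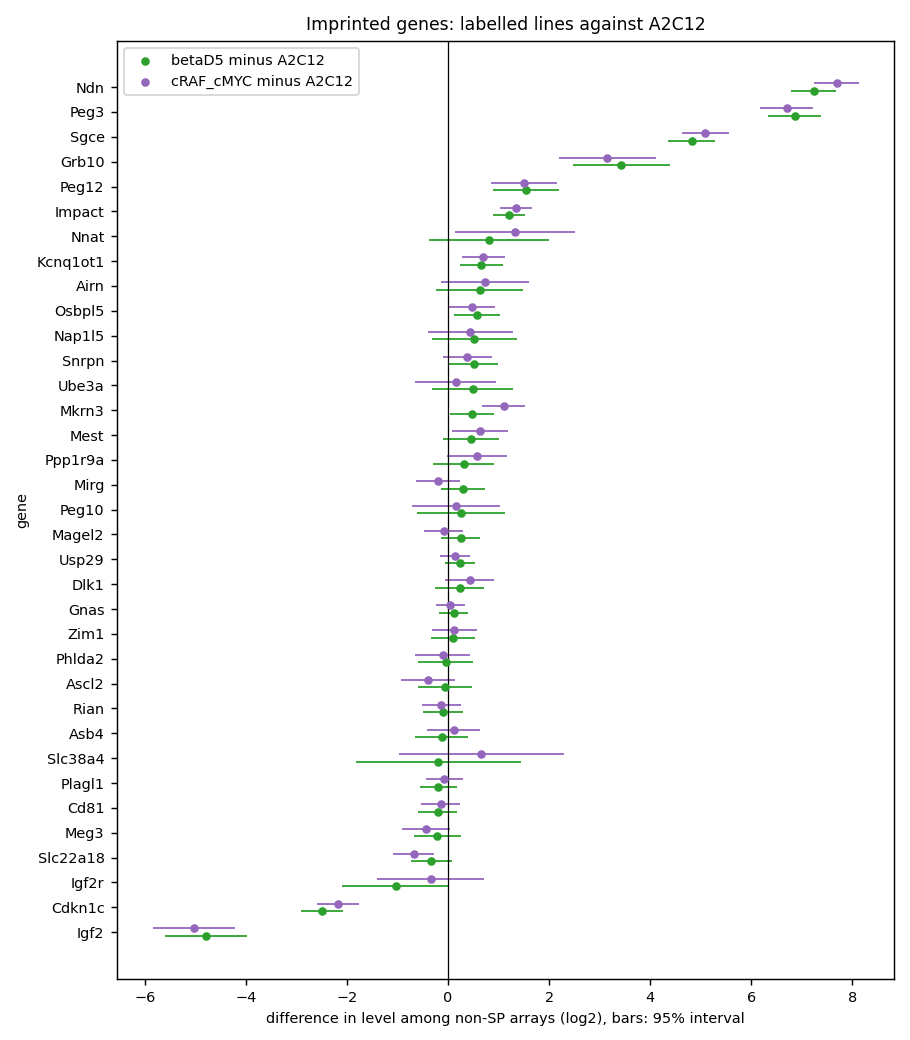
Difference in level among non-SP arrays (log2; horizontal axis) of betaD5 and of cRAF_cMYC from A2C12, with 95% intervals, for the 35 imprinted genes, fitted without the filter on low levels. Ndn, Peg3, Sgce and Grb10 lie farthest to the right, Igf2 and Cdkn1c farthest to the left, and both lines show similar values for each of these 6.

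Among the genes of growth factor signalling, Igf2 encodes insulin-like growth factor 2, a fetal growth factor expressed from the paternal copy. Its levels were 12.31, 11.99 and 10.86 on the A2C12 non-SP arrays. They were 6.67, 7.19 and 6.93 in betaD5 and 7.00, 6.18 and 6.87 in cRAF_cMYC. Every A2C12 array, SP included, was above every other array, and 10 of the other 12 arrays were still above background. Such separation was common: of 10916 tested genes, 10.5% had every A2C12 array above all others and 11.3% had every one below. Igf2 was lower by 4.79 in betaD5 (SE 0.38, 27.7-fold, limma adjusted p = 6.4e-07) and by 5.04 in cRAF_cMYC (SE 0.38, 32.9-fold, limma adjusted p = 4.0e-07). A second Igf2 probe set read 3.90 to 5.31 on all arrays, below background. The probe set that lists both Mir675 and H19, the maternally expressed RNA next to Igf2, read 4.44 to 5.60 on the 18 arrays, and its signal cannot be given to H19 alone.

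Grb10 encodes an adaptor that dampens signalling from the insulin and IGF receptors. On non-SP arrays it read 5.56, 5.44 and 5.11 in A2C12, all under background. In betaD5 they were 8.31, 8.63 and 9.46, and in cRAF_cMYC 7.98, 8.55 and 9.05. The 12 betaD5 and cRAF_cMYC arrays all lay above background and above the 6 of A2C12, a separation that 11.3% of all tested genes had. Because A2C12 gives only a bound, Grb10 was at least 4.98-fold higher in betaD5 (log2 difference 3.43, SE 0.45, limma adjusted p = 6.6e-05) and at least 4.11-fold higher in cRAF_cMYC (3.15, SE 0.45, limma adjusted p = 0.00017). The bounds set each dim array at the background level of that array. The 2 other Grb10 probe sets read 4.94 to 5.92 on every array, with line differences of -0.22 to 0.29.

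Igf2r encodes the receptor that takes IGF2 into lysosomes for degradation, and it is expressed from the maternal copy. Its non-SP levels were 9.50, 9.96 and 9.73 in A2C12, 9.56, 8.14 and 8.39 in betaD5, and 9.32, 10.00 and 8.84 in cRAF_cMYC. Within the labelled lines betaD5 and cRAF_cMYC the arrays did not keep together, and neither line differed from A2C12 past the threshold (limma adjusted p = 0.13 and 0.67). Airn, the paternally expressed RNA that overlaps Igf2r and silences it on that copy, ranged from 6.03 to 8.06 and was not called in either comparison (differences 0.62 and 0.73, SE 0.41).

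**Figure D3:**
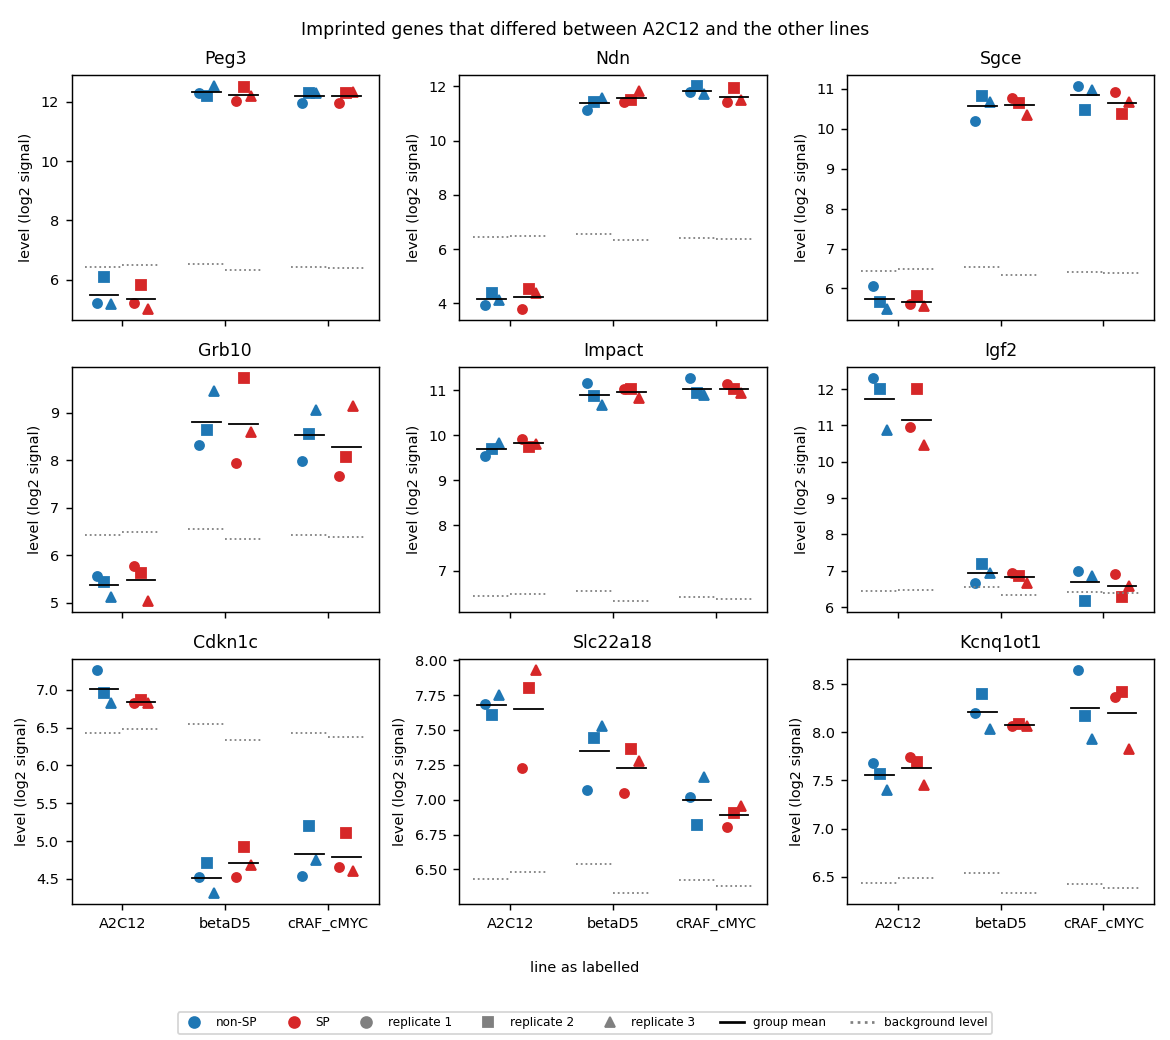
Level (log2 signal) of 9 imprinted genes by labelled line, with non-SP arrays in blue, SP arrays in red, replicate numbers as symbols, group means as black lines and the background level of each group as dotted lines. For Peg3, Ndn, Sgce and Grb10 all 6 A2C12 arrays lie under background and the other 12 above it, for Cdkn1c the reverse holds, and for Slc22a18 the lines overlap.

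The Kcnq1 domain on chromosome 7 holds the non-coding RNA Kcnq1ot1, made from the paternal copy, and maternally expressed genes that it silences there. Cdkn1c encodes p57Kip2, an inhibitor of cyclin-dependent kinases that restrains growth. Non-SP levels of Cdkn1c were 7.26, 6.95 and 6.82 in A2C12, 4.52, 4.70 and 4.31 in betaD5, and 4.53, 5.20 and 4.75 in cRAF_cMYC. All 6 A2C12 arrays were above background, and none of the other 12. Its low mean left Cdkn1c out of the main test, and a fit with no filter gave differences of -2.50 in betaD5 and -2.18 in cRAF_cMYC (SE 0.20, limma adjusted p = 5.4e-07 and 2.4e-06). Against background these are bounds of at least 1.37-fold and 1.45-fold lower.

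Kcnq1ot1 itself was higher outside A2C12 on the probe set with the highest mean of its 6, the only 1 whose values are given here. Its non-SP levels were 7.68, 7.56 and 7.41 in A2C12, 8.20, 8.40 and 8.03 in betaD5, and 8.65, 8.17 and 7.93 in cRAF_cMYC. The A2C12 arrays of both fractions lay below all others, 7.41 to 7.74 against 7.82 to 8.65, as they did for 11.3% of all tested genes. The differences were 0.66 (SE 0.19, limma adjusted p = 0.019) and 0.70 (SE 0.19, limma adjusted p = 0.018). Both calls were lost when A2C12 non-SP array 2 or 3 was left out (limma adjusted p of 0.050 to 0.076). They were also lost without betaD5 non-SP array 2 (0.077) for the first and cRAF_cMYC non-SP array 1 (0.091) for the second.

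Slc22a18, a maternally expressed gene for a membrane transporter, was lower in cRAF_cMYC than in A2C12 by 0.68 (SE 0.18, 1.60-fold, limma adjusted p = 0.015). Its non-SP levels were 7.68, 7.61 and 7.75 in A2C12, 7.07, 7.45 and 7.53 in betaD5, and 7.02, 6.82 and 7.16 in cRAF_cMYC. The call was lost without cRAF_cMYC non-SP array 2 or A2C12 non-SP array 3 (limma adjusted p = 0.063 and 0.056). It was lost as well on the deposited values without further normalization, where the difference was -0.30 (limma adjusted p = 0.34). A second probe set of the gene read 7.06 to 7.27 on the 6 A2C12 arrays and 5.27 to 5.91, under background, on the other 12. Osbpl5, which encodes a lipid transfer protein, just missed the threshold in betaD5 (0.57, SE 0.21, limma adjusted p = 0.051) and passed it without the 2 pairs (0.63, SE 0.17, limma adjusted p = 0.0089). Cd81, the gene of a tetraspanin, kept a narrow range of 12.31 to 13.12 over all arrays. Phlda2, a gene that limits growth of the placenta, stayed between 5.98 and 7.10 around the background level, and Ascl2, needed for placental trophoblast, read 5.20 to 6.18.

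In the Peg3 domain, Peg3 encodes a paternally expressed zinc finger protein. On non-SP arrays Peg3 read 5.22, 6.07 and 5.17 in A2C12, 12.30, 12.19 and 12.55 in betaD5, and 11.98, 12.30 and 12.29 in cRAF_cMYC. The 6 A2C12 arrays were all under background, and the 12 others kept within 11.95 to 12.55. Peg3 was at least 58.1-fold higher in betaD5 (log2 difference 6.86, SE 0.25, limma adjusted p = 5.4e-11) and at least 52.0-fold higher in cRAF_cMYC (6.70, SE 0.25, limma adjusted p = 7.6e-11). Of its 4 other probe sets, 2 read 4.35 to 5.79 on the A2C12 arrays, under background, and 6.51 to 11.08 on the others, and 2 read 3.11 to 3.92 on every array. Usp29, whose start region overlaps that of Peg3 in the sequence above, read 4.73 to 5.36 on all 18 arrays and was near background both where Peg3 was high and where it was not. Zim1, a maternally expressed zinc finger gene next to Peg3, read 3.73 to 4.74.

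The Snrpn domain on chromosome 7 corresponds to the human region lost in Prader-Willi and Angelman syndromes. Ndn, a paternally expressed gene whose product necdin restrains cell division, had non-SP levels of 3.94, 4.37 and 4.12 in A2C12. They were 11.14, 11.43 and 11.58 in betaD5 and 11.79, 12.02 and 11.71 in cRAF_cMYC. No A2C12 array came near the others. Ndn was at least 29.8-fold higher in betaD5 (log2 difference 7.24, SE 0.21, limma adjusted p = 2.8e-12) and at least 40.9-fold higher in cRAF_cMYC (7.69, SE 0.21, limma adjusted p = 1.3e-12). Of 8 Ndn probe sets, 5 read 3.33 to 6.19 on the A2C12 arrays, under background, and 9.90 to 12.02 on the others, and 3 stayed at or under 5.16 on every array.

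Neighbouring genes of the domain behaved differently. Peg12 and Mkrn3, both paternally expressed, were near background in all groups. Yet the 6 A2C12 arrays of Peg12, 3.45 to 4.08, lay below the other 12, 4.57 to 6.18, and the fit with no filter called it in both lines (differences 1.55 and 1.51, SE 0.31, limma adjusted p = 0.0023 and 0.0033). Mkrn3, a ubiquitin ligase gene, was called in that fit in cRAF_cMYC (1.10, SE 0.20, limma adjusted p = 0.0015) and missed the threshold in betaD5 (0.47, limma adjusted p = 0.12), and it was not called between these 2 lines. Magel2, a relative of Ndn, read 5.01 to 5.73. Snrpn, which encodes a splicing protein, had 6.33 to 7.41 on the probe set assigned to it alone and was not called (0.50 and 0.38, SE 0.23). Probe sets that list both Snurf and Snrpn, which share a transcript, were not tested, and the brightest read 10.41 to 10.95 on the 18 arrays. Ube3a, a ubiquitin ligase gene imprinted in neurons, was also not called (0.49 and 0.15, SE 0.38).

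In the Peg10 domain on chromosome 6, Sgce encodes epsilon-sarcoglycan, a membrane protein, and is paternally expressed. Non-SP arrays gave 6.07, 5.66 and 5.50 in A2C12, 10.19, 10.83 and 10.67 in betaD5, and 11.08, 10.46 and 10.97 in cRAF_cMYC. As with Peg3 and Ndn, the A2C12 arrays lay under background and the other 12 well above it. Sgce was at least 16.9-fold higher in betaD5 (log2 difference 4.82, SE 0.22, limma adjusted p = 9.8e-10) and at least 20.4-fold higher in cRAF_cMYC (5.09, SE 0.22, limma adjusted p = 4.3e-10). Its second probe set stayed at 4.26 to 5.70. Peg10, a retrotransposon-derived gene that starts next to Sgce and is expressed from the same parental copy, read 4.23 to 5.83 and was near background in every group. The maternally expressed Asb4 and Ppp1r9a of this domain read 3.86 to 4.95 and 4.74 to 6.03.

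Impact, a paternally expressed gene whose product restrains the amino acid sensor kinase Gcn2, was expressed in all lines and higher outside A2C12. Its non-SP levels were 9.54, 9.70 and 9.83 in A2C12, 11.16, 10.87 and 10.66 in betaD5, and 11.27, 10.93 and 10.89 in cRAF_cMYC. In both fractions the A2C12 arrays lay below all others, as for 11.3% of all tested genes, while betaD5 and cRAF_cMYC overlapped. The differences were 1.21 (SE 0.15, 2.31-fold, limma adjusted p = 3.4e-05) and 1.34 (SE 0.15, 2.54-fold, limma adjusted p = 1.6e-05).

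In the Dlk1-Dio3 domain on chromosome 12, the maternally expressed RNA Meg3 had non-SP levels of 7.58, 7.64 and 7.31 in A2C12, 6.92, 7.41 and 7.56 in betaD5, and 7.02, 6.74 and 7.46 in cRAF_cMYC. It was not called in either line (-0.21 and -0.44, SE 0.22). Without the pairs that went against their labels the cRAF_cMYC difference was -0.63 (SE 0.19, limma adjusted p = 0.025). That call rests on 1 of 11 Meg3 probe sets, and the others ran in both directions. One of similar brightness read 7.20 and 6.81 on the cRAF_cMYC non-SP arrays left and 6.86, 7.11 and 6.81 in A2C12. A dimmer one was lower in cRAF_cMYC (6.14 and 6.29 against 6.66, 6.77 and 6.39). Another dim one was higher there (6.11 and 6.28 against 5.46, 5.52 and 5.38). Rian and Mirg, RNAs of the same maternal transcription unit, were near background at 5.57 to 6.34 and 5.05 to 6.04. Dlk1, the paternally expressed gene of a Notch-like transmembrane protein, ran from 5.88 to 7.33, with the highest level in cRAF_cMYC SP array 1.

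Of the genes that are alone or nearly so in their domains, Gnas, which encodes the stimulatory G protein alpha subunit, kept within 13.34 to 13.94 on all arrays. Its differences were 0.11 and 0.04 (SE 0.13). Plagl1, a zinc finger gene that restrains proliferation, read 5.92 to 6.71 on the probe set with the highest mean. A second Plagl1 probe set read 6.52 to 7.33 on both fractions of betaD5 1 and of cRAF_cMYC 1 and 2. On all other arrays that probe set read 4.13 to 5.03, so it split the labelled lines. Mest, the paternally expressed mesoderm-specific transcript, read 4.60 to 5.87. Nap1l5, a retrogene, read 4.04 to 5.76. On the probe set with the highest mean, these 4 genes showed no call in any line comparison. Only Gnas passed the filter of the main test, and the others were fitted with no filter.

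By parental copy, 8 paternally expressed, 5 maternally expressed and 3 other genes were tested. Of the 8 paternally expressed genes, 5 were higher and 1 (Igf2) lower in each line than in A2C12, beside 15.6% higher and 13.2% lower of all genes in betaD5 and 12% and 10.3% in cRAF_cMYC. Of the 5 maternally expressed genes, none was called in betaD5 and 1 (Slc22a18) was lower in cRAF_cMYC. The fit with no filter added the maternally expressed Cdkn1c, lower in both lines. It also added 2 paternally expressed genes near background, Peg12, higher in both lines, and Mkrn3, higher in cRAF_cMYC. In each line 3 of the 5 higher genes (Peg3, Ndn and Sgce) are among those whose call the filter fixed. The counts by parental copy can therefore not be read against the shares of all genes.

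Averaging probe sets and leaving out the normalization moved the size of some of these differences by more than 1.5 times. Averaging all probe sets of a gene gave differences of 2.97 and 2.87 for Peg3, 4.15 and 4.41 for Ndn, 2.66 and 2.89 for Sgce, and -2.82 and -2.85 for Igf2, all still called. Deposited values without further normalization gave 1.94 for Impact and 1.27 for Kcnq1ot1 in betaD5.

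No imprinted gene and no gene at all was called between betaD5 and cRAF_cMYC as labelled (limma, 0% of 10916 genes, 291 at an unadjusted p under 0.05, and of the 16 imprinted genes 1, Ndn). Without the 2 pairs that went against their labels, 21.4% of genes were called, and of the 16 imprinted genes only Igf2r. It was higher in cRAF_cMYC by 1.39 (SE 0.25, limma adjusted p = 0.0017), with 9.32 and 10.00 on the cRAF_cMYC non-SP arrays left and 8.14 and 8.39 on those of betaD5. Igf2r was then also lower in betaD5 than in A2C12 by 1.47 (SE 0.23, limma adjusted p = 0.00023). On the arrays left out, betaD5 1 had 9.56 and cRAF_cMYC 3 had 8.84. The second Igf2r probe set ran the same way, at 9.07 in betaD5 non-SP 1, 8.03 and 8.52 in betaD5 2 and 3, 9.49 and 9.56 in cRAF_cMYC 1 and 2, and 8.73 in cRAF_cMYC 3.

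Slc38a4 and Nnat showed the same split among arrays. Slc38a4 encodes an amino acid transporter and is paternally expressed. On non-SP arrays it read 6.93 in betaD5 1 against 4.60 and 4.89 in betaD5 2 and 3, and 6.21 and 7.42 in cRAF_cMYC 1 and 2 against 5.33 in cRAF_cMYC 3. It was above the background of the array on 4 arrays, both fractions of betaD5 1 and of cRAF_cMYC 2. Nnat, which encodes a small membrane protein of developing neurons, read 5.48 in betaD5 1 against 4.28 and 4.58, and 5.84 and 6.16 in cRAF_cMYC 1 and 2 against 3.87 in cRAF_cMYC 3, all under background. With no filter and without the 2 pairs, 5 of 35 imprinted genes were called between cRAF_cMYC and betaD5, beside 14.4% of 18193 genes. These were Slc38a4 (2.07, SE 0.43, limma adjusted p = 0.0053), Nnat (1.57), Igf2r, Mkrn3 (0.79) and Mirg (-0.75). In the same fit Slc38a4 and Nnat were also called in cRAF_cMYC against A2C12 (1.15 and 2.03, limma adjusted p = 0.049 and 2.4e-06), which they were not with all arrays.

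**Figure D4:**
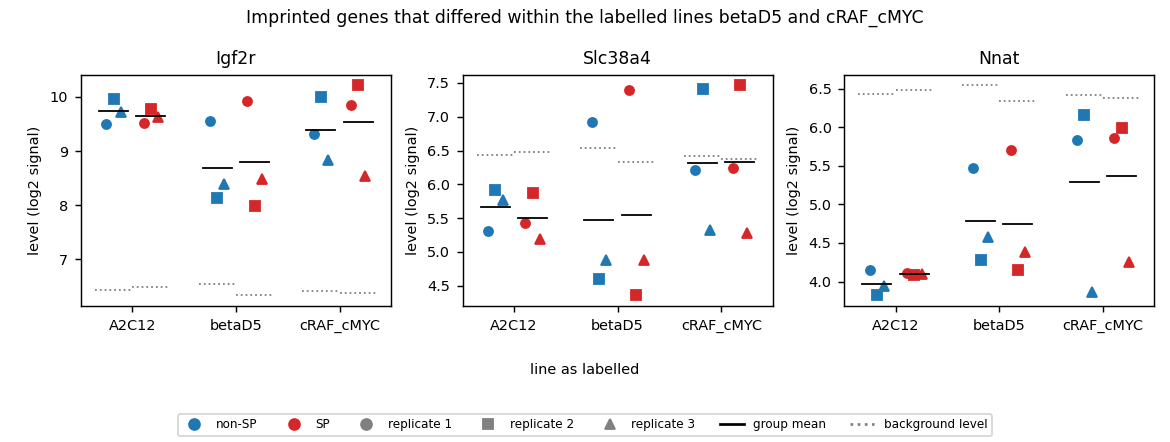
Level (log2 signal) of Igf2r, Slc38a4 and Nnat by labelled line, with non-SP arrays in blue, SP arrays in red, replicate numbers as symbols, group means as black lines and the background level of each group as dotted lines. In betaD5 the circles (replicate 1) lie above the other symbols, and in cRAF_cMYC the triangles (replicate 3) lie below them.

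SP and non-SP cells were compared within each line, which is the question the sort was made for. No imprinted gene was called between them in any line or in the mean of the lines (0 of 16, 0% of 10916 genes, limma). That does not show equal levels. Within a line, the intervals of the 16 genes reached a median of 0.47 to either side of the difference. At an unadjusted p under 0.05 there were also 0 of 16, beside 9, 116, 77 and 143 of all genes in A2C12, betaD5, cRAF_cMYC and the mean of the lines. Treating the pairs as blocks in the fit also called 0 genes, with intervals that reached a median of 0.27 to either side within a line. At an unadjusted p under 0.05 this fit had 1 of the 16 imprinted genes in each line, beside 202, 1159 and 862 of all genes in A2C12, betaD5 and cRAF_cMYC. In the mean of the lines it had 0 of 16, beside 1369 of all genes. Over the 35 genes the mean of the 9 paired differences lay between -0.26 (Igf2) and 0.24 (Dlk1), and 298 of the 315 differences were smaller than 0.5. None of the 35 genes moved the same way in all 9 pairs. This was rare over all 10916 tested genes too, of which 0.815% were higher and 0.486% lower in SP in all 9. With no filter the median size of the mean SP difference was 0.057 over the 35 and 0.055 over 18193 genes.

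**Figure D5:**
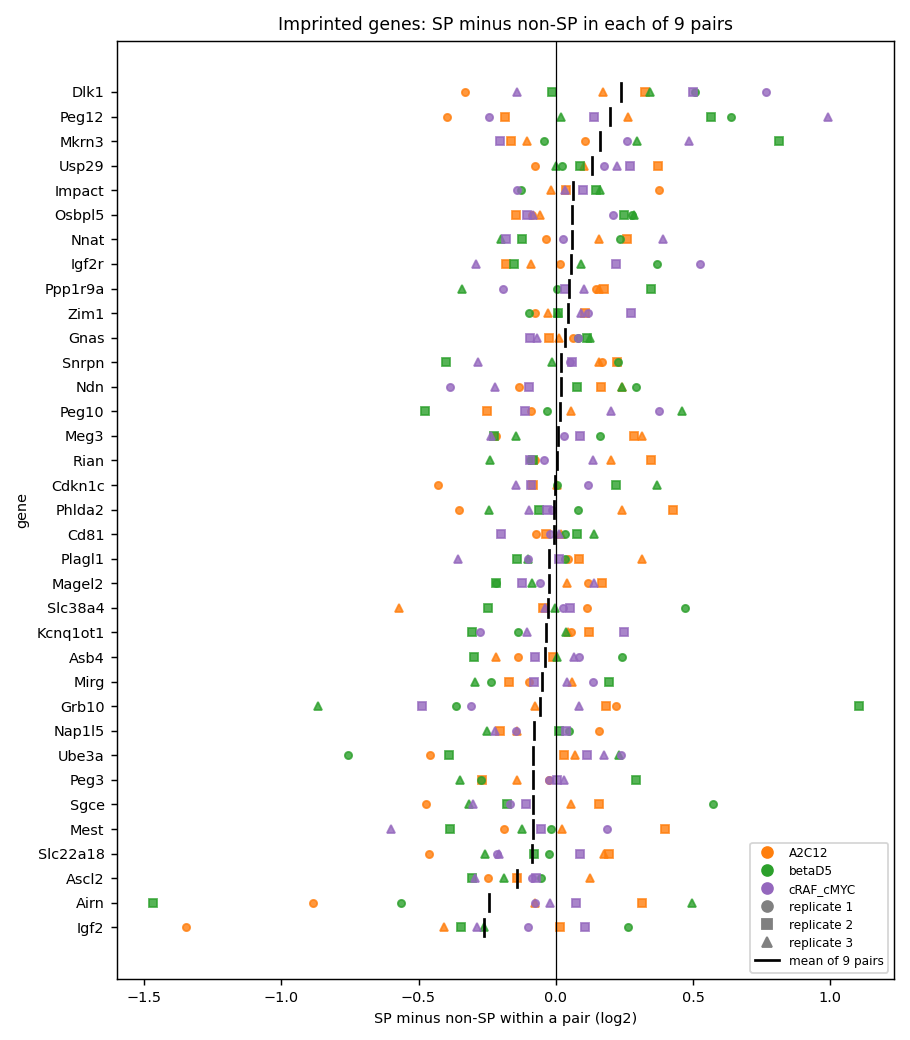
SP minus non-SP (log2; horizontal axis) within each of 9 pairs of arrays for the 35 imprinted genes, with lines as colours, replicate numbers as symbols and the mean of the 9 pairs as a black bar. The bars lie between -0.26 for Igf2 and 0.24 for Dlk1, and every gene has pairs on both sides of 0.

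Igf2 had the smallest p in the mean of the lines (-0.26, 95% interval -0.73 to 0.21, limma adjusted p = 1.0) and in A2C12 (-0.58, interval -1.40 to 0.24). In A2C12 the SP array was lower by 1.35 in pair 1, higher by 0.01 in pair 2 and lower by 0.41 in pair 3. With the replicate block the A2C12 difference had an interval of -1.04 to -0.12 and an adjusted p of 1.0 by limma. The block gave the Igf2 difference in the mean of the lines an interval of -0.53 to 0.006 (limma adjusted p = 0.40). The gene next in the mean of the lines was Airn (-0.24, interval -0.75 to 0.26), which differed by -1.47 in betaD5 pair 2 and by 0.50 in betaD5 pair 3. Slc22a18 (-0.09, interval -0.31 to 0.14) and Impact (0.06, interval -0.12 to 0.25) followed, while with the replicate block Peg3 and Osbpl5 came before them. Leaving out 1 array at a time moved these means to -0.41 to -0.15 for Igf2, -0.36 to -0.08 for Airn, -0.13 to -0.02 for Slc22a18 and 0.02 to 0.11 for Impact, none of them called.

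Osbpl5 had the smallest p in betaD5, with SP above non-SP by 0.28, 0.25 and 0.28 in its 3 pairs (mean 0.27, 95% interval -0.17 to 0.71). With the replicate block the interval was 0.07 to 0.47 and the adjusted p 0.38 by limma. In cRAF_cMYC it was Ndn, with SP lower by 0.38, 0.10 and 0.22 (mean -0.23, interval -0.68 to 0.21, and -0.46 to -0.01 with the replicate block, limma adjusted p = 0.62). In betaD5 Ndn was higher in SP in all 3 pairs, and the test of the difference between both lines gave -0.44 (SE 0.29, limma adjusted p = 1.0). The block narrowed its interval to -0.76 to -0.12, with an adjusted p of 1.0 by limma. The single largest change within a pair above 0 was that of Grb10 in betaD5 pair 2, 1.10, while pair 3 gave -0.87. The betaD5 SP arrays 2 and 3 had the highest 3' to 5' signal differences of the control transcripts Gapdh and Actb, a measure of RNA quality, with means of 0.98 and 1.02 against 0.07 to 0.69 on the other arrays. The part of RNA quality in these differences was not tested.

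Genes that keep imprints in place or otherwise act on DNA methylation, such as Tet2, were listed with the domains' other genes for comparison. DNA methyltransferases, the chromatin remodeller Hells and the corepressor Trim28, which holds methylation at imprinted regions together with Zfp57, belong here. Of 28 such genes listed, 21 were tested. In betaD5 9 were higher and none lower than in A2C12 (beside 28.8% of all genes), and in cRAF_cMYC 5 and none (beside 22.4%). Without the 2 pairs that went against their labels these became 12 higher and 3 lower (Dnmt3b, Tet2 and Zfp445) beside 42%, and 7 and none beside 32%. Between cRAF_cMYC and betaD5 the count went from 0 to 5, beside 21.4%. The median difference was 0.45 and 0.36, against 0.04 and 0.03 over all genes. Those with the smallest p were the same in both lines. Hells was higher by 1.72 and 1.41 (SE 0.19), and the nucleosome-binding Hmgn5 by 1.45 and 1.25 (SE 0.31). Smchd1, which silences several imprinted clusters in the placenta, was higher by 0.80 and 0.67 (SE 0.20), and Trim28 by 0.44 and 0.35 (SE 0.11). Dnmt1, which copies methylation at cell division, was called in betaD5 (0.67, SE 0.23, limma adjusted p = 0.042) and missed the threshold in cRAF_cMYC (0.61, limma adjusted p = 0.073). Zfp57 was called in neither (0.45 and 0.15). Without the 2 pairs Dnmt1 was called in cRAF_cMYC (0.82, limma adjusted p = 0.0029) and Zfp57 in betaD5 (0.57, limma adjusted p = 0.014), and the call of Trim28 in cRAF_cMYC was lost (0.31, limma adjusted p = 0.058).

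Among 36 other genes that lie in or beside the same domains, 19 were tested. In betaD5 2 were higher and 2 lower than in A2C12, and in cRAF_cMYC 3 higher and 1 lower, so 4 of 19 in each, no more than the 28.8% and 22.4% of all genes called. Without the 2 pairs 5 of 19 were called in each, beside 42% and 32%. Herc3, in whose intron Nap1l5 lies, was higher by 1.37 and 1.21 (SE 0.25), and Copg2, next to Mest, by 0.60 and 0.79 (SE 0.17). Pon3, which lies near Sgce and Peg10, was lower by 0.74 and 0.68 (SE 0.19). Lsp1 was lower in betaD5 (-0.70, SE 0.24), a call lost without the 2 pairs (-0.42, limma adjusted p = 0.13), and Casd1, beside Sgce, was higher in cRAF_cMYC (0.58, SE 0.17). Neither list held a called gene between SP and non-SP cells.

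Markers of other cell types differed between the same lines. All 8 mesothelial markers, Wt1, Upk3b, Lrrn4 and Gpm6a among them, were above background in betaD5 and cRAF_cMYC, with a list mean of 9.63 to 11.7 per array. In A2C12 4 of 8 were, with a list mean of 7.41 to 7.77, and the 4 genes just named were not above background. Of 13 fibroblast markers, 12 or 13 were above background in betaD5 and cRAF_cMYC and 9 in A2C12. Of 11 leukocyte markers 6 and of 10 endothelial markers 3 were above it in every group. Of 8 skeletal muscle markers 3 were above it in A2C12 and 4 in the other lines. Of all genes, 59.8% to 62.4% were above background in the 6 groups. The leukocyte, endothelial and muscle counts were no higher than that share. The part of these in the differences of imprinted genes was not tested, and in these bulk samples fewer cells of a type and less RNA per cell cannot be told apart.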

How the data were processed

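Affymetrix 3' arrays measured total RNA (200 ng, amplified to 10 µg cRNA) of 18 samples, 3 in each of 6 groups. The authors deposited log2 signals for 45101 probe sets, made with Affymetrix Expression Console per the submitters' processing notes, with version and algorithm not given in the sources used here. They ran from 2.28 to 15.28 with array medians of 5.80 to 6.72, so arrays were not on 1 distribution and were quantile-normalized. The number of arrays limits the precision. Probe sets listing several genes (932) were not used.

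R 4.3.3 and limma 3.58.1 (lmFit, eBayes with trend, 12 residual degrees of freedom) fitted 6 group means to 10916 genes, after the 40% with the lowest mean were left out. Tests were two-sided, with Benjamini-Hochberg adjustment and a threshold of 0.05. The fits were tested on simulated data. The labels do not say whether replicates were separate cultures, so p-values measure the spread between these samples, which may be technical. Same-numbered SP and non-SP arrays deviated together (r of 0.425 to 0.954 in 9 pairs), so the numbers were taken as pairs. For betaD5 3 the r with another number was higher, 0.680 against 0.602.

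The members and lists were chosen with earlier results of these data known. Genes named were the members called in a line comparison, Igf2 and H19. For SP they were the 4 smallest p in the mean of the lines and the smallest in each line. Of each other list up to 4 called genes per line comparison were named. Other members with values, Dnmt1, Zfp57, Dnmt3b, Tet2, Zfp445 and Cdh1 were named after their values were seen. Alternatives were the normalization, the filter, the probe set, the trend, the pairing, the background percentile and leaving out arrays. The start-region sequences are from RefSeq, and windows of 33 of the 39 genes were used. Windows on chromosome 18, where Impact lies, were left out, and Sgce, Peg10, Cdkn1c, H19 and Rtl1 had no window among those used.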

Additional observations from a re-analysis of the deposited data

How the results depend on the processing

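The counts of imprinted genes called kept within 1.5 times of those reported under centring on array medians, no filter, no trend, the mean of both arrays of a pair and averaging of the probe sets of each gene. For betaD5 minus A2C12 the count of 7 became 12 of 16 on deposited values, where 6021 genes were called in place of 3143, and 4 of 8 tested with the 60% of genes with the lowest mean left out. That filter also gave 4 of 8 in place of 8 for cRAF_cMYC minus A2C12, since fewer genes were tested. Without the pairs labelled betaD5 1 and cRAF_cMYC 3, cRAF_cMYC minus betaD5 went from 0 to 1. Combining this with no filter, an alternative chosen after seeing the data, gave 11, 14 and 5 of 35 for the 3 comparisons in the order given. Leaving out each array in turn gave 6 to 8 for both comparisons with A2C12 and 0 for cRAF_cMYC minus betaD5. The count near background, 15, ran from 14 to 20 under the alternatives and from 14 to 15 when an array was left out. The replicate block, alone, with no filter or without the 2 pairs (both combinations chosen after seeing the data), left 0 imprinted genes called in every SP comparison, as did every other setting. With probe sets averaged the mean SP difference of Impact was -0.00326 (limma adjusted p = 1.0), and the cause was not tested. Levels near the background limit what these arrays can show for the 15 dim genes.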
